A study of Mus musculus with 24 samples.

Results

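The genes described here encode the linker histone H1 and the core histones H2A, H2B and H4. They were taken from the array's platform annotation as every probe set with a single gene symbol of the form used for clustered histone genes or numbered H1 genes. The choice used symbols alone and no measured value. It gave 30 probe sets for 29 of the 22180 genes with a symbol of their own, since H2ac21 had 2, and each gene was represented by its probe set of highest mean over the 24 arrays. There were 8 H1, 6 H2A, 8 H2B and 7 H4 genes and no H3 gene. Of the 29, 23 are replication-dependent histone genes. The pattern also took 5 germ-line genes, H1f6, H1f7, H1f8, H2ac1 and H2bc1, and the replication-independent linker histone gene H1f10, so the name replication-dependent does not cover all 29.

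The study measured RNA from mice on 24 single-colour arrays, 3 in each of 8 groups. The groups were mutant and wild-type mice at 4 stages, coded V, dp12, dp18 and Lac10. The titles of the V arrays spell the code out as virgin. In the codes dp was taken to mean day of pregnancy and Lac day of lactation, although the design text speaks of months and gives V as 0. All mice, mutant and wild type, shared a background of 80% FVB, 10% 129SVEV and 10% Black Swiss. Titles of most dp18 and Lac10 arrays add a colour, white, brown or golden. It differs within some groups, and it was not used in the tests. The labels name neither the mutant allele nor what drives it, nor how the arrays of a group relate. The titles give each mutant array a number of its own and most arrays a body weight, which points to a separate mouse for each, although no label says so in words. A p-value here refers to the variation among the arrays as given. The title of the series names BRCA1. Brca1 RNA itself did not separate the genotypes, with log2 differences, mutant minus wild type, of -0.14, 0.45, 0.15 and -0.14 at V, dp12, dp18 and Lac10, so it gives no check of the genotype labels. The tissue is not named either. The milk protein gene Csn2 and the epithelial keratin genes Krt8 and Krt18 lay above the array median on all 24 arrays, and the germ-cell genes Ddx4, Dazl, Prm1 and Tnp1 on 1, 1, 0 and 0.

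Histones package DNA into nucleosomes, and a dividing cell must make a new set each time it copies its genome. The replication-dependent genes meet that need. They lie in clusters, are transcribed mainly in S phase, lack introns, and give mRNAs that end in a stem-loop bound by SLBP in place of a poly(A) tail. In the mammary gland, a wave of epithelial division in pregnancy builds the milk-producing alveoli. Because most of these mRNAs carry no poly(A) tail, how much of them a labelling method captures depends on its primer, and the labels' protocols do not settle which primer was used.

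The RefSeq gene table of assembly GRCm38.p6 places 21 of the 29 genes on chromosome 13, 5 on chromosome 3, 2 on chromosome 6 and 1 on chromosome 15. Many are direct neighbours. H4c12 lies next to H2ac15, and H2ac12 lies next to H2bc12. The proteins of the clustered replication-dependent H2A, H2B and H4 genes are nearly identical within a class. Where their transcripts are alike too, a signal assigned to a single gene may hold RNA of its copies.

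The start regions of the 5 genes that passed a test are shown, since these genes rose between V and dp12 in mutants. Each sequence runs from 250 bases before to 50 bases after the annotated start, is read on the gene's own strand, and comes from RefSeq, GRCm38.p6. Capitals mark the motifs CCAAT and TATAAA, the octamer ATTTGCAT and the motif AAACACA, searched on both strands, so that a reverse complement is in capitals too.
H1f5 (chr13:21780576-21780875, minus strand): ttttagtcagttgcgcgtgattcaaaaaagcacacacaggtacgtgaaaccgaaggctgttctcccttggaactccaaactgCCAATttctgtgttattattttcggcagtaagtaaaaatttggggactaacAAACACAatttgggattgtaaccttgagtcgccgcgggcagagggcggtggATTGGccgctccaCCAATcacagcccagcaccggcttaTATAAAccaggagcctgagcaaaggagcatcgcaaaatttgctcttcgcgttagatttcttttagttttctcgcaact
H2ac10 (chr13:23533625-23533924, plus strand): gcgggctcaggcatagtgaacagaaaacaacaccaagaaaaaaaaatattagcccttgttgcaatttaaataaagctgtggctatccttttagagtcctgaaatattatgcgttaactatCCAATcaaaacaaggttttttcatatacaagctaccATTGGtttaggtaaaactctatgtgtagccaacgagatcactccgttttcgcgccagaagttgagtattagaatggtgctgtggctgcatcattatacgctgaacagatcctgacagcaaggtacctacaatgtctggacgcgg
H2ac15 (chr13:21753863-21754162, minus strand): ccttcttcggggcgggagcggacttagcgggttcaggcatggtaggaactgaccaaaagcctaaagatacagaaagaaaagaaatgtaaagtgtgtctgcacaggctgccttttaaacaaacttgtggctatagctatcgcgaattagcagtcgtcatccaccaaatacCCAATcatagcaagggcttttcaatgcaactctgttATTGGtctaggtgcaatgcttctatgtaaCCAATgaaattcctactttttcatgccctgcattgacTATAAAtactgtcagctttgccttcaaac
H2bc12 (chr13:22035571-22035870, plus strand): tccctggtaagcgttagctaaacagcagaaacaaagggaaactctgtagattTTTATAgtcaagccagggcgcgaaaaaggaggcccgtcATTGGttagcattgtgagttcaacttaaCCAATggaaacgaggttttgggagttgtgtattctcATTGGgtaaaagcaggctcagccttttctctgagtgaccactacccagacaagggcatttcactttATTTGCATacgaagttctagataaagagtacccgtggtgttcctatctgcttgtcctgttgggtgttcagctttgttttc
H2bc3 (chr13:23746484-23746783, plus strand): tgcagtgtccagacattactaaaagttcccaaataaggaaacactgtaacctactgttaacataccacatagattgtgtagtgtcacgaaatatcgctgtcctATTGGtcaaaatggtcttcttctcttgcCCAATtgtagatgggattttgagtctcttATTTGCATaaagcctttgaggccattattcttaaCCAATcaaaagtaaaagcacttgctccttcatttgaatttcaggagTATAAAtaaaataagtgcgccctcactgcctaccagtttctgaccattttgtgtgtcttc

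RefSeq windows were matched for 27 of the 29 genes, all but H2bc21 and H4c14. CCAAT, the motif of the factor NF-Y, was in 20 of the 27 windows and in 37.4% of all 32851 windows of the same length. TATAAA, known as a core promoter element, was in 16 of 27 and in 13.6% of all windows. ATTTGCAT, the octamer known from H2B promoters, was in 8 of 27 and in 1.74% of all windows, and it was in 4 of the 6 windows of replication-dependent H2B genes. AAACACA, known from H1 promoters, was in 7 of 27 and in 7.18% of all windows, and it was in 3 of the 4 windows of replication-dependent H1 genes. Among the 5 genes shown, CCAAT was in 5, TATAAA in 4, ATTTGCAT in the 2 H2B genes, and AAACACA in H1f5. Relative to the annotated start, TATAAA began at -28 in H1f5, at -10 in H2bc3 and at +22 in H2ac15. In H2bc12 the match was the reverse complement, from -198. No letter belongs to more than 1 of the 4 motifs in the sequences shown. The matches describe the letters alone.

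Expression values are log2 values from RMA, a method that sets all arrays to a common distribution, and differences are therefore log2 differences. The median of all probe sets on an array was 5.31 to 5.62, and it serves as the level against which a gene counts as well detected. Of the 29 histone genes, 11 had a mean above the mean array median. H1f2, H2ac10, H2bc3, H4c12 and H4c17 lay above the median on all 24 arrays, and 11 genes lay above it on none. A gene was tested where at least 3 arrays lay above their median, which 16 of the 29 passed and 13 did not. Among the 16 were 14 replication-dependent genes, H1f10 and the germ-line gene H2ac1. Some passed mainly through dp12. H2ac15 passed with 7 arrays, 6 of them at dp12 and 0 at V, H2ac20 with 5, of which 4 were at dp12 and 0 at V, and H2bc12 with 11, of which 6 were at dp12 and 0 at V. The tests of these genes from V to dp12 are therefore not independent of the filter, and the counts from a fit of all 22180 genes with no filter are given below. A few arrays stood apart from the rest, with a median correlation with the others of 0.799 (mutant Lac10 replicate 2), 0.837 (wild-type dp18 replicate 1) and 0.863 (mutant dp18 replicate 1). In bulk RNA, fewer cells of a type and less RNA per cell cannot be told apart.

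Between V and dp12, 5 histone genes rose in mutants and 3 rose in wild type, and none fell in either genotype by limma with Benjamini-Hochberg adjustment. With no filter on low values the same 5 and 3 genes were called, when 628 of all 22180 genes were called in mutants (2.83%) and 680 in wild type (3.07%). H1f5, H2ac15 and H2bc12 were called in both genotypes, and H2ac10 and H2bc3 were called in mutants. The difference between the genotypes in this step was tested too, and it was called for no member (limma adjusted p = 0.695 for H2ac10 and H2bc3). The rises ran from 2.88-fold to 6.24-fold in mutants and from 2.83-fold to 4.6-fold in wild type. Of all 15234 genes tested, 677 were called in mutants (4.44%), of which 460 were higher (3.02%), and 983 in wild type (6.45%), of which 901 were higher (5.91%). These shares are over tested genes, whereas 13 of the 29 members were not tested. The test gave 10 members with an unadjusted p under 0.05 in mutants and 8 in wild type, each of them higher at dp12, as did 15.3% and 32.4% of the genes tested, in either direction.

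H1f5 encodes a linker histone, the class that binds DNA where it enters and leaves the nucleosome. In mutants its level was 8.22, 8.75 and 8.92 at dp12, against 6.33, 5.63 and 6.00 at V. In wild type it was 8.53, 7.56 and 8.48 at dp12, against 5.90, 6.02 and 6.04 at V. Every dp12 array was above every V array in both genotypes. The difference was 2.64 (SE 0.53) in mutants and 2.20 (SE 0.53) in wild type, with limma adjusted p of 0.00473 and 0.023. The other H1 genes of replicating cells were also higher at dp12 without being called. H1f2 differed by 0.66 in mutants and 0.51 in wild type (SE 0.33 each), and H1f3 by 0.47 and 0.39 (SE 0.34 each). H1f1, too low to be tested, differed by 0.92 and 0.68, and its groups did not overlap in either genotype. In wild type its lowest dp12 value and highest V value were both 4.15 to 2 decimals. H1f10, the linker histone made outside S phase, differed by 0.82 in mutants (limma adjusted p = 0.301) and by 1.06 in wild type (0.0811), with SE 0.38 each.

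H2ac15 encodes H2A, which pairs with H2B on the nucleosome. Its mutant arrays read 5.78, 6.10 and 6.62 at dp12, against 4.22, 3.51 and 3.31 at V. Its wild-type arrays read 6.63, 5.45 and 6.07 at dp12, against 3.59, 3.91 and 4.20 at V. The groups were separate in both genotypes, and all V values lay below the array medians. The difference was 2.49 in mutants and 2.15 in wild type (SE 0.42 each), with limma adjusted p of 0.00125 and 0.0112, or 0.00181 and 0.0139 with no filter.

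H2ac10, another H2A gene, was well detected at every stage. Mutants had 9.87, 10.50 and 10.68 at dp12, against 8.61, 8.37 and 8.17 at V. Wild type had 10.35, 9.61 and 10.19 at dp12, against 8.62, 9.01 and 9.68 at V. The mutant groups were separate, whereas 1 wild-type V array lay within the wild-type dp12 range. The rise in mutants was 1.96 (SE 0.39, limma adjusted p = 0.00453), and the wild-type difference was 0.94 (SE 0.39, adjusted p = 0.111). Among the remaining H2A genes, H2ac21 differed by 1.54 in mutants and 1.49 in wild type (SE 0.48 each), with limma adjusted p of 0.0795 and 0.0639. The second probe set of H2ac21 did not follow it. Its group means ran from 3.90 to 4.20 over the 8 groups, and the 2 probe sets thus disagree. H2ac20 differed by 0.69 in mutants and 0.18 in wild type (SE 0.20 each), with limma adjusted p of 0.0623 and 0.535. H2ac12, which neighbours H2bc12, lay between 2.48 and 2.88 on all 24 arrays. It was above the array median on 0 of them, too low to be tested.

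H2bc12 encodes H2B. In mutants it read 5.78, 6.61 and 6.34 at dp12, against 5.11, 4.22 and 4.83 at V. In wild type it read 6.74, 5.43 and 6.96 at dp12, against 5.20, 4.78 and 4.66 at V. The dp12 arrays were higher throughout, with the lowest wild-type dp12 array close to the highest V array. The rise was 1.53 in mutants and 1.50 in wild type (SE 0.37 each), with limma adjusted p of 0.0196 and 0.0259.

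H2bc3, also an H2B gene, read 8.36, 8.82 and 9.19 at dp12 in mutants, against 7.21, 7.07 and 6.23 at V. In wild type it read 8.85, 8.26 and 8.48 at dp12, against 7.86, 7.76 and 7.78 at V. The groups were separate in both genotypes, and the mutant V arrays were lower than the wild-type V arrays. The rise in mutants was 1.95 (SE 0.32, limma adjusted p = 0.000972). The wild-type difference was 0.73 (SE 0.32, limma adjusted p = 0.126). The H2B gene H2bc18 differed by 0.46 in mutants and 0.60 in wild type (SE 0.37 each), and H2bc14 by -0.38 and 0.06 (SE 0.28 each). The untested H2bc9 differed by 0.74 and 0.58, with separate groups in both genotypes.

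**Figure D1:**
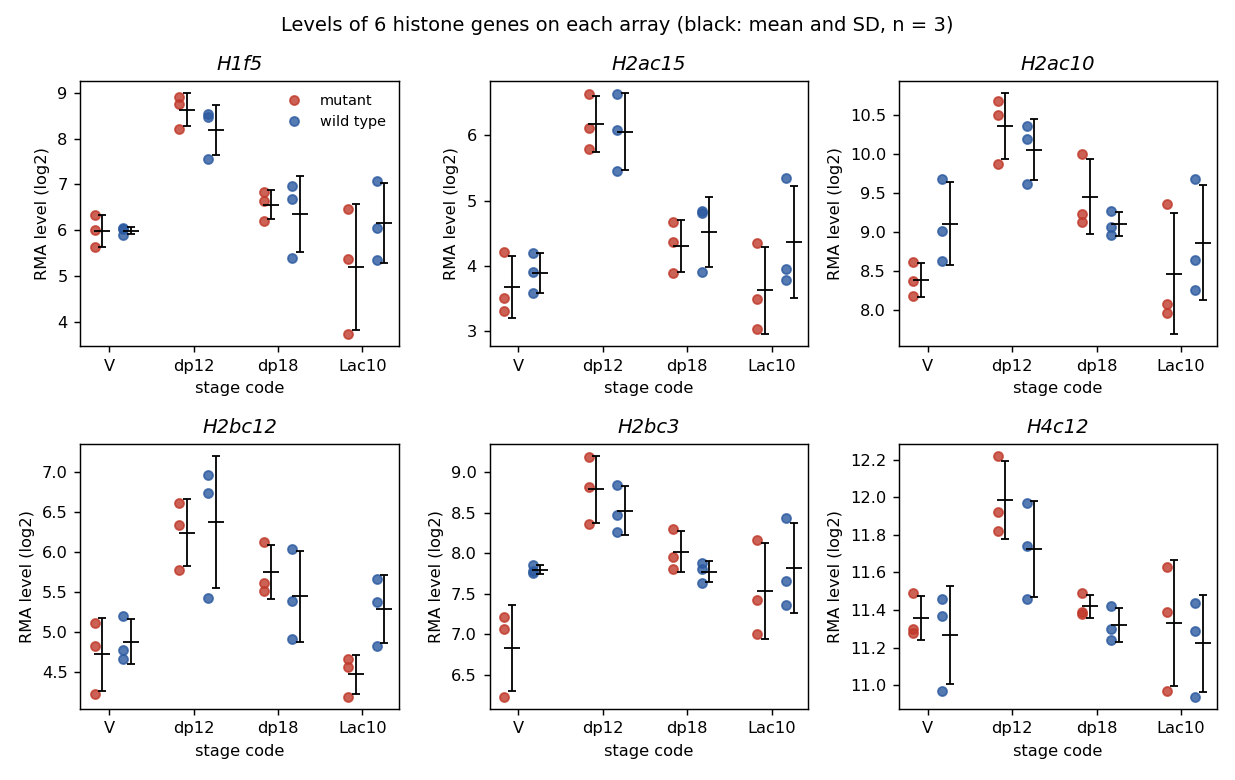
RMA levels (log2) of 6 histone genes on each array at the 4 stage codes, with mutant points left of wild-type points; black bars give the mean and SD of 3 arrays. The dp12 arrays lie above the V arrays in both genotypes for H1f5, H2ac15, H2bc12, H2bc3 and H4c12. In wild type the lowest dp12 value and the highest V value of H4c12 are both 11.46 to 2 decimals, while H2ac10 overlaps.

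The H4 genes, which encode the core histone that pairs with H3, were the class without a called gene. H4c12 read 11.82, 11.92 and 12.22 at dp12 in mutants, against 11.49, 11.30 and 11.28 at V. In wild type it read 11.74, 11.46 and 11.97 at dp12, against 10.97, 11.37 and 11.46 at V. The groups did not overlap in either genotype. In wild type the gap was very small, as the lowest dp12 value and the highest V value were both 11.46 to 2 decimals. The difference was 0.63 in mutants and 0.46 in wild type (SE 0.20 each), with limma adjusted p of 0.0899 and 0.132. H4c17, also above the array median throughout, differed by 0.07 and -0.07 (SE 0.18 each), and H4c14 by -0.21 and -0.33 (SE 0.33 each). In both genotypes 5 of the 7 H4 genes were lower at dp12 than at V, and 4 of 7 with arrays centred on their own median. With housekeeping centring 6 of 7 were lower in mutants and 7 of 7 in wild type. That setting lowers genes in general. The median over all genes was -0.41 in mutants and -0.59 in wild type, beside H4 medians of -0.56 and -0.72. Only 3 of these 7 genes were tested. H4c1, H4c2, H4c8 and H4c9 were not, and they lay above the array median on 0, 0, 0 and 1 arrays.

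The germ-line genes gave no call. H1f6, H1f7, H1f8 and H2bc1 were too low to be tested and differed by -0.41 to -0.03 in the 2 genotypes. H2ac1, which encodes a testis H2A, had 4.91, 6.10 and 6.29 at dp12 in mutants, against 4.47, 4.89 and 4.69 at V. In wild type it had 4.59, 4.57 and 4.89 at dp12, against 5.34, 5.45 and 4.70 at V. The mutant dp12 arrays were above their V arrays, and the wild-type groups overlapped with the opposite sign. The difference was 1.08 in mutants (limma adjusted p = 0.137) and -0.48 in wild type (0.378), with SE 0.39 each. H2bc1, which lies next to H2ac1, stayed between 2.43 and 2.63 on all 24 arrays.

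**Figure D2:**
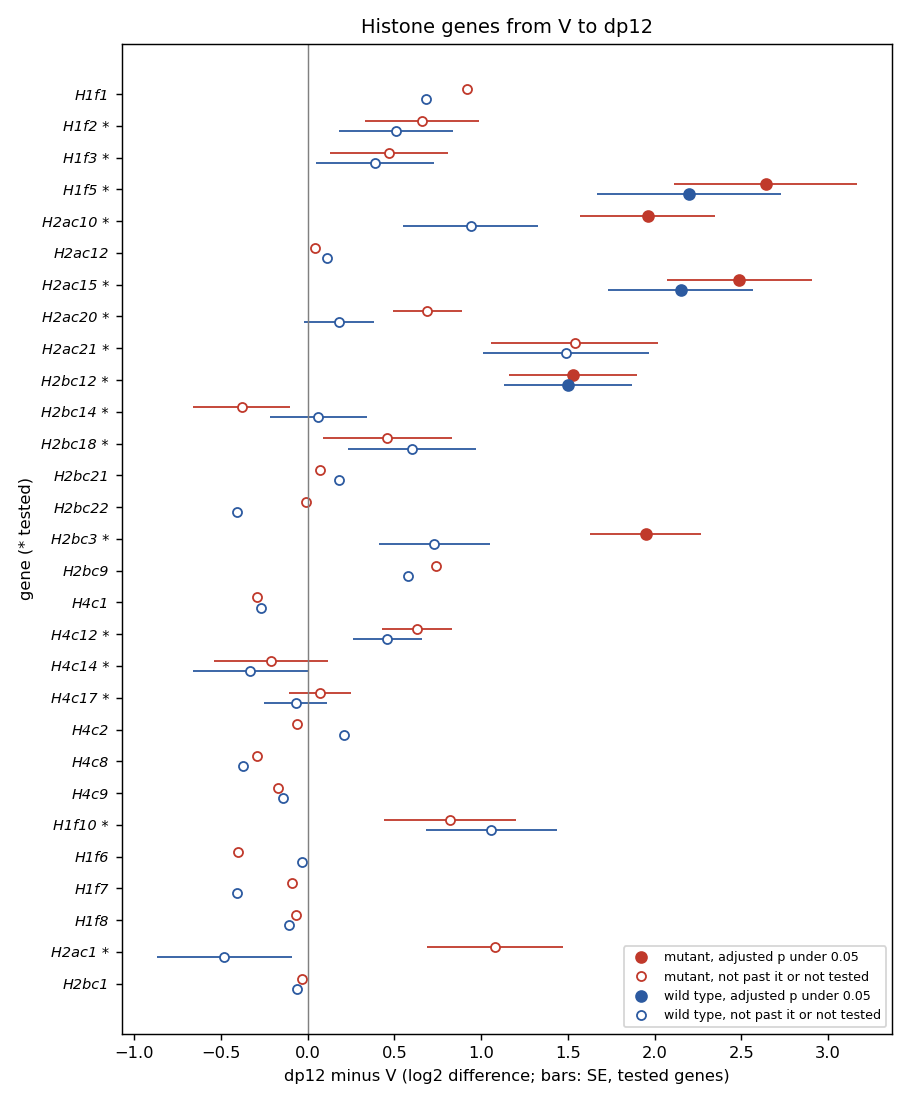
Log2 difference dp12 minus V for each of the 29 histone genes, mutant above wild type in each row, with SE bars for the 16 tested genes and filled points for limma adjusted p under 0.05. H1f5, H2ac15 and H2bc12 are filled in both genotypes, H2ac10 and H2bc3 in mutants, and the H4 and germ-line genes in neither.

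Over all 29 genes, the median difference from V to dp12 was 0.46 in mutants, where the median over all 22180 genes was -0.01, and it was 0.07 against -0.41 when arrays were centred on housekeeping genes. In wild type it was 0.18, beside -0.01 over all genes, and -0.40 beside -0.59 with housekeeping centring. Centring moves every gene alike, so the gap between the members and all genes is the same under both by construction. Housekeeping centring subtracts from each array the median level of the 19 housekeeping genes. Its shift is therefore not the median change of those genes, which was 0.05 in mutants and 0.25 in wild type. Without mutant V replicate 2 the mutant median was 0.11, and leaving out 1 array at a time gave 0.11 to 0.64. By class, the replication-dependent H2A genes had the median 1.54 in mutants and 0.94 in wild type, or 1.15 and 0.36 with housekeeping centring. The H1 medians were 0.79 and 0.59, or 0.40 and 0.01. The H2B medians were 0.46 and 0.58, or 0.07 and 0.00, and the H4 medians -0.17 and -0.14, or -0.56 and -0.72. Of the 7 H4 genes, 3 were tested. The groups did not overlap and dp12 was higher for 11 of the 29 genes in mutants and 13 in wild type, where 16.5% and 29.4% of all genes did so. They did not overlap and dp12 was lower for 2 and 4 genes, with 13.4% and 25.6% of all genes.

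The wild-type calls rested on few arrays. Without wild-type dp12 replicate 1, wild-type V replicate 2 or wild-type V replicate 3, no member was called in wild type. Without wild-type dp12 replicate 3, 1 was called. Without mutant dp18 replicate 1, 5 were called. The limma adjusted p of H2ac15 was 0.0741, 0.0578 and 0.0506 without the 3 arrays named first. Wild-type V replicate 2 had the highest levels of lymphocyte and muscle genes in its group, with list medians 1.97 and 2.27 above the 24-array mean, and the part of these cells in the result was not tested. In mutants, leaving out any 1 array gave 4 to 7 called members, and H2bc12 lost its call in 3 such fits. With housekeeping centring 4 members were called in mutants, where H2bc12 had a limma adjusted p of 0.106, and no member was called in wild type.

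After dp12, no histone gene passed in either genotype. From dp12 to dp18, limma called 0 of 15234 genes (0%) in mutants and 0 (0%) in wild type, so no gene on the arrays passed. At an unadjusted p under 0.05, 10 members were lower in mutants and 8 in wild type, beside 13.7% and 9.69% of the genes tested in either direction. With array weights, 0 members were called in mutants and 7 in wild type, where 0.00656% and 18.1% of all genes tested were called. These comparisons share the dp12 arrays with those from V to dp12, and their values stand side by side with no further reading. H1f5 had 6.21, 6.83 and 6.64 at dp18 in mutants and 5.40, 6.68 and 6.96 in wild type. Those levels were below all dp12 arrays of the same genotype. The difference, dp18 minus dp12, was -2.07 in mutants (limma adjusted p = 0.238) and -1.85 in wild type (0.484), with SE 0.53 each.

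H2ac15 at dp18 had 3.89, 4.36 and 4.67 in mutants and 3.91, 4.84 and 4.81 in wild type, again below all dp12 arrays of the genotype. The difference was -1.86 in mutants (limma adjusted p = 0.169) and -1.53 in wild type (0.484), with SE 0.42 each. In mutants the linker histone gene H1f2 differed by -1.15 (SE 0.33) and H2ac20 by -0.79 (SE 0.20), with limma adjusted p of 0.257 and 0.239. In wild type, H2ac21 differed by -1.47 (SE 0.48) and H1f10 by -1.05 (SE 0.38), both with limma adjusted p of 0.484. The groups did not overlap and dp18 was lower for 9 of 29 genes in mutants and 8 in wild type, where 14.6% and 13.3% of all genes did so. They did not overlap and dp18 was higher for 1 and 0 genes, with 9.33% and 9.29% of all genes. The median over the 29 genes was -0.36 in mutants and -0.30 in wild type, beside 0.01 and 0.00 over all genes. Leaving out 1 array gave -0.54 to -0.26 in mutants, with -0.54 without mutant dp18 replicate 2, and -0.30 to -0.10 in wild type, with -0.10 without wild-type dp18 replicate 1, -0.14 without wild-type dp12 replicate 2 and -0.18 without wild-type dp18 replicate 2. With housekeeping centring these medians were -0.01 and 0.05, beside 0.37 and 0.34.

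From dp18 to Lac10, limma called 0 of 15234 genes in mutants (0%) and 0 in wild type (0%), the members included. At an unadjusted p under 0.05 there were 3 members in mutants, all lower at Lac10, and 0 in wild type, beside 2.95% and 8% of the genes tested. With array weights 0 members were called in mutants and 3 in wild type, where 0% and 25.6% of all genes tested were called. The mutant members were H2bc12 with -1.28 (SE 0.37), H1f5 with -1.37 (SE 0.53) and H2ac10 with -0.99 (SE 0.39), each with limma adjusted p of 0.987. H2bc12 read 4.19, 4.66 and 4.56 at Lac10 in mutants, against 5.51, 6.13 and 5.61 at dp18, and those groups did not overlap. Such separation, with Lac10 lower, held for 2 of the 29 genes in mutants (1.38% of all genes), the other being the untested H2ac12, and with Lac10 higher for 0 (1.19%). In wild type the smallest p values belonged to H1f3 with 0.63 (SE 0.34), H1f2 with 0.44 (SE 0.33), H4c14 with 0.40 (SE 0.33) and H2ac20 with 0.24 (SE 0.20), with limma adjusted p from 0.685 to 0.801. H2ac20 was -0.15 with housekeeping centring. In wild type the groups did not overlap and Lac10 was higher for 3 of the 29 genes (7.23% of all genes) and lower for 0 (3.76%). The median over the 29 genes was -0.12 in mutants and 0.05 in wild type, beside -0.02 and 0.00 over all genes, or 0.31 and -0.34 beside 0.40 and -0.38 with housekeeping centring.

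**Figure D3:**
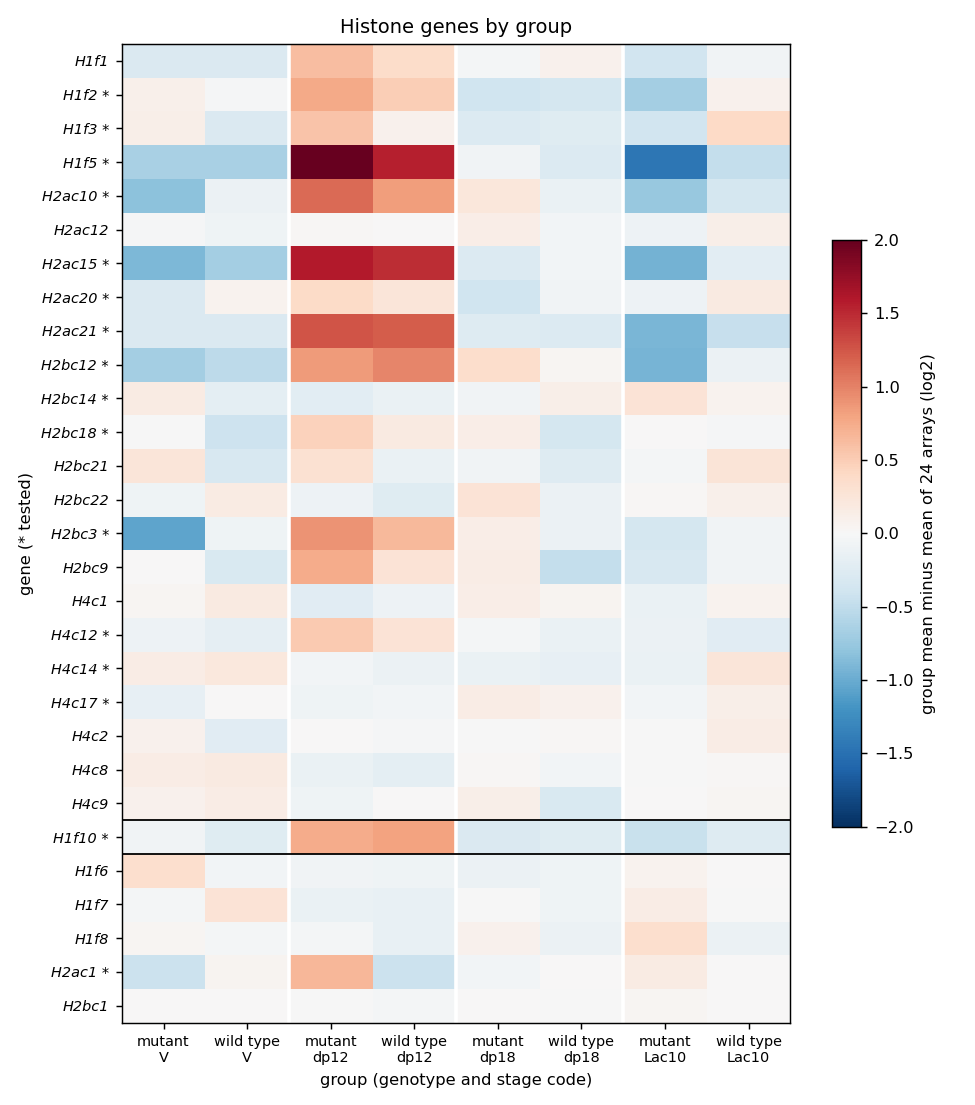
Group mean minus the mean of 24 arrays (log2) for the 29 histone genes, in rows by kind and class, with the mutant column left of the wild-type column at each stage code; asterisks mark the 16 tested genes. As deposited, dp12 is the highest stage in both genotypes for H1f1, H1f2, H1f5, H1f10, H2ac10, H2ac15, H2ac20, H2ac21, H2bc3, H2bc9, H2bc12, H2bc18 and H4c12.

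The stage with the highest group mean was dp12 for 16 of the 29 genes in mutants and for 13 in wild type, compared with 28.7% and 30.9% of all genes. It was V for 4 and 8 genes (23.4% and 33.4% of all genes). It was dp18 for 5 and 1 (14.7% and 12.5%), and Lac10 for 4 and 7 (33.3% and 23.2%). At Lac10 the mutant arrays were spread widely. H1f5 read 6.47, 3.73 and 5.37 there, and its lowest value came from replicate 2, the array with the median correlation of 0.799.

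Between genotypes, no histone gene was called at any of the 4 stages. Limma called 4 of 15234 genes at V (0.0263%), 0 at dp12 (0%), 0 at dp18 (0%) and 36 at Lac10 (0.236%), so the shares of all genes were near 0 too. Members with an unadjusted p under 0.05 numbered 1, 1, 0 and 3 at V, dp12, dp18 and Lac10, where 15.8%, 1.21%, 0.656% and 17.6% of the genes tested had one, so the members' counts at V and Lac10 are near the background. The genotype comparisons use the same arrays as the stage comparisons.

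At V the smallest p belonged to H2bc3, with 7.21, 7.07 and 6.23 in mutants, against 7.86, 7.76 and 7.78 in wild type. The groups did not overlap. The difference was -0.97 (SE 0.32, limma adjusted p = 0.246). H2ac10 differed by -0.72 (SE 0.39, limma adjusted p = 0.353) and H2ac20 by -0.36 (SE 0.20, 0.373), both with groups that did not overlap, and H2bc14 by 0.36 (SE 0.28, 0.497). The groups did not overlap and mutants were lower for 4 of 29 genes, with 17% of all genes, and mutants were higher for 1, with 18.3%. H2bc3 alone among the members was called without the 3 arrays that stood apart (limma adjusted p = 0.047). The share of all genes called in that fit is not given here. H2bc3 and H2ac10 were called with array weights (limma adjusted p of 0.00962 and 0.0069), a setting that called 36.6% of all genes tested there. Of the 29 genes, 15 were higher and 14 lower, with a median of 0.00, or -0.29 with housekeeping centring, beside 0.02 and -0.27 over all genes.

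At dp12 the smallest p belonged to the testis gene H2ac1, with 4.91, 6.10 and 6.29 in mutants, against 4.59, 4.57 and 4.89 in wild type. The lowest mutant array stood just above the highest wild-type array. This was the only member with separate groups, of which 7.03% of all genes were higher in mutants and 7.92% lower. The difference was 1.09 (SE 0.39, unadjusted p = 0.0111, limma adjusted p = 1), and it was called with array weights (1.19, limma adjusted p = 0.0207), which called 0.952% of all genes tested. H1f3 differed by 0.48, H1f5 by 0.44 and H4c12 by 0.26, all with limma adjusted p of 1. Mutants were higher for 23 genes and lower for 6, with a median of 0.11, or 0.00 with housekeeping centring, beside 0.01 and -0.09 over all genes. At dp18 the members of smallest p were H2ac20 with -0.33 (SE 0.20), H2bc18 with 0.49 (SE 0.37), H2ac10 with 0.35 (SE 0.39) and H2bc12 with 0.31 (SE 0.37), all with limma adjusted p of 1. No member's groups were separate there, compared with 1.45% of genes higher and 1.11% lower.

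At Lac10 the 4 members of smallest p were all lower in mutants. H1f2 had 9.34, 7.54 and 9.07 in mutants, against 9.49, 9.64 and 9.10 in wild type. H1f3 had 5.85, 5.11 and 4.85 in mutants, against 6.00, 6.22 and 5.91 in wild type. H2bc12 had 4.19, 4.66 and 4.56 in mutants, against 5.66, 4.82 and 5.37 in wild type. The groups of H1f3 and H2bc12 did not overlap, and 1 mutant array of H1f2 lay within its wild-type range. Of the 29 genes, 3 had separate groups with mutants lower (8.89% of all genes) and 1 with mutants higher (5.69%). The differences were -0.76 (SE 0.33), -0.77 (SE 0.34) and -0.81 (SE 0.37), with limma adjusted p of 0.247, 0.249 and 0.262. H1f2 ran from -1.1 to -0.2 when 1 array was left out, with -0.2 without mutant Lac10 replicate 2. H1f5 differed by -0.97 (SE 0.53, limma adjusted p = 0.336), from -1.61 to -0.24 when 1 array was left out, and by 0.17 with array weights.

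Mutants were lower at Lac10 for 21 of the 29 genes and higher for 8, with a median of -0.21, beside -0.01 over all genes. The median was -0.09 without wild-type Lac10 replicate 1 and -0.02 with array weights. With housekeeping centring 24 were higher and 5 lower, with a median of 0.51 beside 0.71. The housekeeping genes were themselves lower in mutants there, with a median difference of -0.41. The centring uses their median level on each array, so its shift is not that median difference. At the same stage the epithelial list had a median of -1.03, with 5 of 5 genes lower, and the white adipocyte list 1.29, with 5 of 6 higher. Per array, the median deviation of the epithelial list ran from -2.82 to 0.44 in mutants and from -0.96 to 0.33 in wild type. That of the adipocyte list ran from -0.22 to 2.48 in mutants and from -0.45 to 0.02 in wild type. The part of these cell types in the histone values was not tested.

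**Figure D4:**
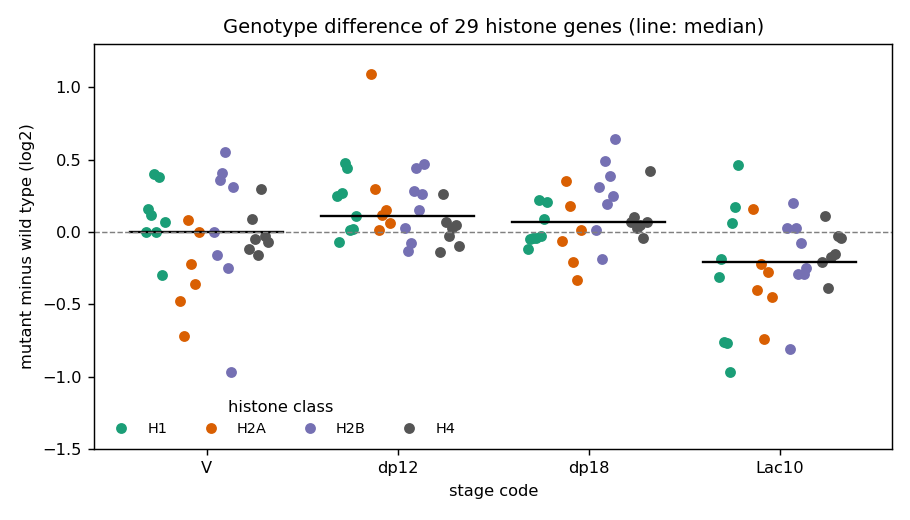
Log2 difference mutant minus wild type for each of the 29 histone genes at the 4 stage codes, coloured by histone class, with a line at the median. As deposited, the points spread around 0 at V, and 21 of 29 lie below 0 at Lac10, against 5 of 29 with housekeeping centring.

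The difference between genotypes in a stage step was tested directly, and no histone gene passed. Limma called 1 of 15234 genes from V to dp12 (0.00656%) and 0 for each of the later steps (0%). Unadjusted p was under 0.05 for 2, 1 and 1 members in the 3 steps, and for 5.95%, 0.414% and 6.26% of the genes tested. From V to dp12 the mutant difference exceeded the wild-type difference by 1.56 for H2ac1 (SE 0.55) and by 1.23 for H2bc3 (SE 0.45), both with limma adjusted p of 0.695. H2ac10 followed with 1.02 (SE 0.55) and H2ac20 with 0.51 (SE 0.29). With array weights these 4 genes passed, as did 28.2% of all genes tested. With the compared groups alone H2ac1 passed (limma adjusted p = 0.0446), and the share of all genes called in that fit is not given here. From dp12 to dp18 the smallest p was that of H2ac1 with -1.15 (SE 0.55, limma adjusted p = 1), and from dp18 to Lac10 that of H2bc12 with -1.12 (SE 0.52, 0.742). Averaged over the 4 stages, limma called 0 of 15234 genes (0%), and no member had an unadjusted p under 0.05. The smallest p there was that of H2ac20 with -0.21 (SE 0.10), and H2bc18, H4c12 and H2ac15 followed with 0.30, 0.14 and -0.26.

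Genes around histone supply were read from lists. Of the histone chaperones and assembly factors, which carry new histones to DNA, 5 of 18 rose from V to dp12 in mutants and 4 of 18 in wild type, and none fell. Chaf1a, a subunit of the assembly factor CAF-1, rose by 1.74 (SE 0.27, limma adjusted p = 0.000684) in mutants and by 1.27 (SE 0.27, 0.0132) in wild type. Asf1b, which hands H3 and H4 to CAF-1, rose by 2.13 (SE 0.43, 0.00473) in mutants and differed by 1.42 (SE 0.43, 0.0504) in wild type. Of the genes for histone mRNA transcription and 3′ end formation, 1 of 18 rose in mutants and 0 of 18 in wild type. The riser was the cyclin gene Ccne1, with 1.01 (SE 0.19, limma adjusted p = 0.00285) in mutants and 0.37 (SE 0.19, 0.178) in wild type. Slbp, whose protein binds the histone stem-loop, differed by 0.08 and 0.33 (SE 0.37 each), and Npat, a coactivator of histone genes, by 0.13 and 1.16 (SE 0.35 each), with limma adjusted p of 0.969 and 0.0504 for Npat.

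Among the replication-independent histone variants, a list that also holds H1f10, 2 of 7 rose in mutants and 0 of 7 in wild type. H2ax, the variant phosphorylated at DNA breaks, rose by 1.53 (SE 0.36, limma adjusted p = 0.0159) in mutants and differed by 1.19 (0.0507) in wild type. Cenpa, the centromere H3 variant, rose by 1.32 (SE 0.34, 0.0278) in mutants and differed by 1.06 (0.0603) in wild type. H2az1 was not tested, and it differed by 0.04 in mutants and 1.35 in wild type.

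The cell-cycle lists rose in the same step. Of 19 S phase genes, 13 rose in mutants and 9 in wild type, with a median of 1.29 in each, and Mcm2, a subunit of the replicative helicase, rose by 1.66 (SE 0.46, limma adjusted p = 0.0437) in mutants and differed by 1.33 (SE 0.46, 0.074) in wild type. All 14 mitosis genes rose in both genotypes, with medians of 2.68 in mutants and 2.26 in wild type, and Mki67, a marker of dividing cells, rose by 3.37 (SE 0.54) and 3.00 (SE 0.54). Brca1 rose as well, by 1.66 (SE 0.31) in mutants and 1.07 (SE 0.31) in wild type, with limma adjusted p of 0.00244 and 0.0445. Per array, the median deviation of the 29 histone genes from the 24-array mean ran at dp12 from 0.15 to 0.68 in mutants, against -0.24 to 0.02 at V. In wild type it ran from 0.04 to 0.10 at dp12, against -0.16 to -0.06 at V. The S phase list ran from 0.79 to 1.27 at dp12 in mutants, against -0.61 to 0.14 at V, and from 0.40 to 1.10 at dp12 in wild type, against -0.68 to -0.28 at V. Of the 29 histone genes behind these medians, 13 were too low to be tested. Housekeeping centring lowers every difference from V to dp12 by the shift of the median of all genes given above, in lists and members alike.

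Milk protein genes rose in that step for 3 of 8 in each genotype, with medians of 1.49 in mutants and 1.28 in wild type and 8 of 8 higher in each. Of the housekeeping genes, 2 of 19 rose in mutants and 1 of 19 in wild type, with medians of 0.05 and 0.25. Marker lists of epithelium, adipocytes, lymphocytes and muscle gave no call. Epithelial genes had medians of -0.07 in mutants and 0.32 in wild type, with 2 of 5 and 5 of 5 higher. White adipocyte genes had -0.26 and -0.44, with 5 of 6 and 6 of 6 lower. Lymphocyte genes had -0.54 and -0.70 with 8 of 8 lower in each, and skeletal muscle genes -0.42 and -0.75 with 6 of 6 lower in each. Their part in the histone values was not tested.

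**Figure D5:**
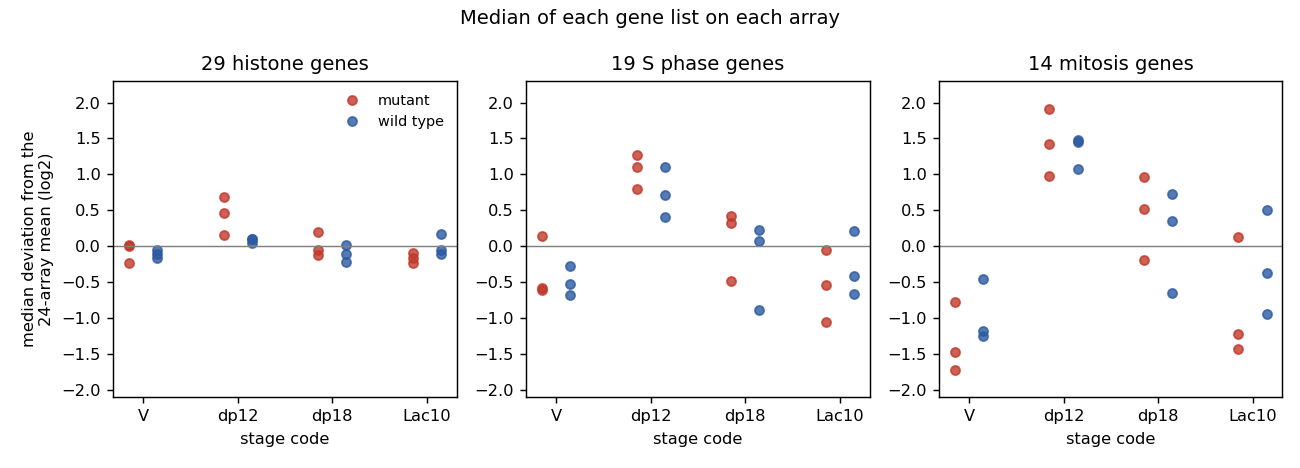
Median deviation from the 24-array mean (log2) of the 29 histone genes, 19 S phase genes and 14 mitosis genes on each array, by stage code, with mutant points left of wild-type points. At dp12 all 6 arrays lie above 0 in each panel, between 0.04 and 0.68 for the histone genes, as deposited; with housekeeping centring the wild-type histone median from V to dp12 was -0.40, beside -0.59 over all genes.

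A further 38 probe sets list several histone genes each and were left out of the 29. They were 12 H3, 11 H2A, 8 H2B, 5 H4, 1 H1 and 1 shared by H1 and H2B, and 14 of them lay above the array median on all 24 arrays. From V to dp12, 30 were higher and 8 lower in mutants, with a median of 0.40, and 34 were higher and 4 lower in wild type, with a median of 0.33. The 12 H3 probe sets, the class missing from the 29, had medians of 0.43 in mutants and 0.30 in wild type. The 5 H4 probe sets had medians of -0.18 and 0.56. These values are as deposited, with no test. Housekeeping centring, by the median level of its genes, would lower them by the same amount as all genes. That leaves the mutant medians of all 38 and of H3 near 0 and puts the wild-type ones below 0. The median differences of the housekeeping genes themselves were 0.05 in mutants and 0.25 in wild type. Both are smaller than the medians of all 38 and of H3 as deposited.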

How the data were processed

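The deposited values are log2 expression values that the authors made with RMA, per the submitters' processing notes, with no version given. The method subtracts background, forces every array onto the same distribution and combines probes into probe sets, which hides any change common to most RNAs. Per the labels' protocols, Trizol was used to extract total RNA, from which biotinylated cRNA was made. A further treatment text describes an RNA pull-down and an amplification kit, and the sources used here do not settle which applied. The genome build is not given in the sources used here, and coordinates printed with sequences are RefSeq's.

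Of 41345 probe sets, 23521 carry 1 gene symbol, 1814 several and 16010 none, and genes were named from the first kind only. Replicate numbers of wild-type arrays come from the labels, and those of mutant arrays, given by accession order, only name them. Each gene with at least 3 arrays above their median (15234 of 22180) was fitted with limma 3.58.1 in R 4.3.3, with 1 mean per group on all 24 arrays, 16 residual and 4.35 prior degrees of freedom, and Benjamini-Hochberg adjustment at a threshold of 0.05. The median SE was 0.3 over all tested genes and 0.35 over tested members. The number of arrays limits the precision. The test was checked on simulated data with noise drawn independently for each gene and array, without arrays that stand apart. Figures and tables used Python 3.11.15, pandas 2.3.3 and matplotlib 3.10.9. Members and lists were chosen with earlier results of these data known. Named were up to 10 rises and 10 falls among called members per comparison, or the 4 of smallest p where fewer than 3 passed, up to 4 genes of smallest p per list from V to dp12, and Slbp, Npat, Mki67, Mcm2, Brca1, H2ax and H2az1. Other members are given as values to account for all 29. Alternatives changed the probe set, the filter, the centring, a variance trend, array weights and the arrays used.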

Additional observations from a re-analysis of the deposited data

How the results depend on the processing

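Counts of called histone genes were recomputed for 14 comparisons under 454 alternatives. Of these, 435 stayed within 1.5 times the reported count, or at 0 where it was 0. Only the steps from V to dp12 had a reported count above 0, so most of the 435 are counts that stayed at 0. From V to dp12 in mutants, 5 genes were called as reported, 12 with array weights, 8 with only the groups compared and 8 without the 3 arrays of median correlation under 0.9. In wild type, 3 were called as reported, 0 with housekeeping centring, 9 with array weights, 8 with only the groups compared and 6 without the 3 arrays. Leaving out 1 array at a time gave 4 to 7 in mutants, 0 to 5 in wild type and 0 to 0 in each other comparison. For genotype at V, 2 were called with array weights and 1 without the 3 arrays, and for genotype at dp12, 1 with array weights. In wild type array weights called 7 from dp12 to dp18 and 3 from dp18 to Lac10. For the genotype difference in the step V to dp12, array weights called 4 and only the groups compared 1. No share of all genes called is given for only the groups compared or for the fit without the 3 arrays. A higher count there may hold for genes in general. Array weights called 26.9% of all genes tested from V to dp12 in mutants and 63.9% in wild type, and the iteration behind them did not reach its tolerance, and the cause of the changes was not tested. With array weights the sign turned for H2bc12 (genotype at dp18, -0.13; difference in the step dp12 to dp18, -0.01) and H1f5 (genotype at Lac10, 0.17; difference in the step dp18 to Lac10, 0.19). With housekeeping centring it turned for H2ac20 (wild type, dp18 to Lac10, -0.15) and, for the difference in the step dp18 to Lac10, for H1f2 (0.09) and H1f3 (0.08). Wild-type replicate numbers did not pair the arrays: 4 of 18 same-number pairs had a correlation of deviations over 0.1, from -0.39 to 0.31, and pairs with other numbers ran from -0.31 to 0.35. On wild-type arrays alone, the step V to dp12 gave 2 called genes with the replicate number as a block and 4 without it, and H2bc12 had an adjusted p of 0.057 with the block. Array values cannot show a shift of all RNA. Of the 29 genes, 13 lay too low against the array medians to be tested, and genes of near-identical sequence may share signal.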
